A study of Mus musculus with 24 samples.

Results

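The genes described here make sterols and fatty acids or control their synthesis. They are 35 genes chosen by symbol out of 17017 in the tables: 18 enzymes of cholesterol synthesis, 6 genes of sterol sensing and transport, and 11 enzymes of fatty acid synthesis, elongation and desaturation. They were measured by RNA sequencing of total RNA in primary alveolar macrophages of WT BALB/cJ mice, 20 h after stimulation. The 8 groups were the triple combination of rIL-33, rIL-13 and rIL-17A, the pairs IL-33 with IL-13, IL-13 with IL-17A and IL-33 with IL-17A, each cytokine singly, and an untreated group. Each group had 3 libraries, so 12 libraries received IL-13 and 12 did not. Apart from the WT genotype, the labels give no allele or other agent that the groups share. The labels name no mouse or culture for any library, so every p-value here measures variation among these 24 libraries and may reflect technical variation alone.

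Cholesterol is built in the mevalonate pathway: acetyl-CoA is condensed, reduced and phosphorylated to isoprenoid units, these are joined to squalene, and squalene is closed to lanosterol and trimmed to cholesterol. Transcription of these enzymes, and of fatty acid synthesis, is driven by the sterol regulatory element binding proteins (SREBPs, encoded by Srebf1 and Srebf2), which the escort protein SCAP carries to the Golgi for cleavage when sterols are low and which the INSIG proteins hold back when sterols are high. Alveolar macrophages take up and break down pulmonary surfactant, a film rich in phospholipid and cholesterol.

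Promoters of 28 of the 35 genes were matched by symbol in a RefSeq table of build GRCm38.p6, which gives 250 bases before to 50 bases after each start. It lists 37 promoters for these 28 genes, 6 of which (Dhcr7, Elovl1, Insig2, Pmvk, Scap and Srebf1) have more than 1, and a gene was counted if any of its promoters held the motif, here and over all genes. Fdps, Fdft1, Sqle, Stard4, Scd1, Scd2 and Fads1 had no entry. The strict sterol element TCACNCCAC, searched on both strands, was found for 1 of the 28 genes (3.57%), against 1.44% of all 27025 genes in the table and 1.37% of the 8906 tested genes with an entry. That promoter belongs to Hmgcs1, the synthase that makes HMG-CoA, and is shown from position -197 to -69 with the element, which begins at -137, in capitals (chr13:119690154-119690282, plus strand).
Hmgcs1: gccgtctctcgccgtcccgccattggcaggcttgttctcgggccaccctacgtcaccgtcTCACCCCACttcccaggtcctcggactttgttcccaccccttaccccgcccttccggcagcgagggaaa

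The CCAAT box, read by the factor NF-Y, which binds beside SREBPs in many sterol-regulated promoters, was found on either strand for 23 of the 28 genes (82.1%), against 41.1% of all genes and 42.7% of tested ones. Counted by promoter it was in 24 of 37 (64.9%), against 37.4% of all 32851 promoters and 37.7% of those of tested genes, and Dhcr7 held it in 1 of its 3 promoters. The GC box GGGCGG, read by Sp1, was found for 23 genes (82.1%), against 38.2% of all genes and 68.7% of tested ones. The palindrome CACGTG was found for 6 genes (21.4%), against 8.09% and 12.4%, and the STAT motif, the spaced palindrome TTC to GAA with 4 bases between, in 2 (7.14%), against 8.01% and 6.3%. These are matches of letters in a short window, not measured binding. Mvk, mevalonate kinase, and Fasn, fatty acid synthase, are shown because they held the most CCAAT boxes of the sterol and the fatty acid enzymes; they were chosen after the counts were seen. Mvk had 5 (chr5:114444086-114444268, plus strand) and Fasn 3, of which 2 overlap (chr11:120824592-120824647, minus strand). Capitals mark the boxes, read as CCAAT or, on the other strand, ATTGG.
Mvk: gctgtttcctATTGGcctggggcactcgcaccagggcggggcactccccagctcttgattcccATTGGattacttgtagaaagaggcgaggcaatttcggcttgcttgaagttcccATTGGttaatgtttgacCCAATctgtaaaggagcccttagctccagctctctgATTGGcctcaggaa
Fasn: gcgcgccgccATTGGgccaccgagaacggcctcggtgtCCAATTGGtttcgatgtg

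Values are the deposited TPM, a read share per length scaled to the same total in every library, with the whole span of the gene, introns included, as its length. Levels between genes are therefore given only after rescaling to transcript length, while a gene's own TPM is compared between groups. That length is the unweighted mean over all annotated transcripts of a gene, which may differ from the length of those expressed. Intronic reads, if counted, were not set apart, so levels and ranks between genes are approximate. Reads recovered from the values gave 9112190 to 12858300 per library, and each member had a median of 77.5 to 4396 reads over the 24 libraries. Tests are limma fits on log2(TPM + 1) over 13215 genes with at least 1 TPM in at least 3 libraries, with Benjamini-Hochberg adjustment over all of them; a gene is called at an adjusted p under 0.05. All 35 members passed that filter. A log2 change on this scale understates the change of genes of low TPM, here most in Fads2 and Elovl6, near 1 TPM. It does so less in Acaca (2.50 to 5.07 TPM) and Acss2 (4.07 to 8.37 TPM). In these bulk samples fewer cells of a type and less RNA per cell cannot be told apart. Libraries of a group differed by more than sampling noise in every pair (dispersion index 1.43 to 7.29 in 22 pairs). It was higher, up to 21.7, in the 2 pairs with replicate 2 of the triple combination, which gave the lowest of the 12 IL-13 values for 22 of the 35 members. That library, replicate 1 of the untreated group and replicate 2 of IL-17A alone were left out together as an alternative. These libraries were named singly and not by a cutoff on the index. The untreated library had 6.23 and 6.42 in its pairs and the IL-17A library 7.29 and 4.86. IL-33 replicate 3, at 5.98 and 4.40, was kept.

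The cell type markers bear on all that follows. All 17 listed alveolar macrophage genes were in the tables and summed to 21743 to 24505 TPM in the libraries with IL-13 and 16239 to 17325 TPM in those without. Chil3 (log2 change 3.62) and Ear2 (2.53) carried much of that difference, while Cd68 (-0.23) and Fabp5 (-0.41) were lower with IL-13. Siglecf ran from 257 to 314 TPM with IL-13 and from 486 to 548 TPM without, and Marco was under 1 TPM in every library. The summed epithelial list (7 of 15 genes in the tables) was 36.9 to 44.5 TPM with IL-13 and 48.6 to 60.4 TPM without, with Krt8 at most 0.516 TPM. The fibroblast list (6 of 9) summed to 13.1 to 23.8 TPM with IL-13 and 8.36 to 11.6 TPM without, with Col1a1 and Dcn under 1 TPM everywhere. The higher sum came from Fn1 (10.7 to 20.9 TPM with IL-13 and 3.44 to 5.51 TPM without), and Pdgfra was lower (-0.81). Of 7 lymphocyte genes Il7r is the 1 in the tables, at 140.1 to 169 TPM with IL-13 and 167 to 194 TPM without (log2 change -0.20, limma adjusted p = 1.04e-06). Other marker sums were 6.44 to 12.02 TPM with IL-13 and 8.45 to 12.4 TPM without for endothelium (5 of 6), 67.3 to 127 and 136 to 177 TPM for granulocytes and mast cells (3 of 9), and 2.17 to 5.59 and 3.47 to 5.81 TPM for dendritic cells and monocytes (5 of 8). The part of these differences in the results was not tested.

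IL-13 raised most of the sterol pathway. Averaged over the 4 backgrounds without and with IL-33 and IL-17A (12 libraries against 12), 24 of the 35 members were higher, 5 were lower and 6 were not called. Over all tested genes 20.0% were called higher and 30.9% lower. The members were chosen with earlier results of these data known. Their counts beside all-gene shares, here and below, are therefore description and not an independent test. In 8 members (Mvk, Pmvk, Mvd, Fdps, Nsdhl, Dhcr7, Scd1 and Scd2) all 12 libraries with IL-13 lay above all 12 without, against 6.18% of all tested genes, and in no member did all 12 lie below, against 8.87%. Of the 18 sterol enzymes 16 were higher and none lower, with a median log2 change of 0.29, against 0.23 over all 35 members and -0.05 over all tested genes. With libraries scaled by median ratios, the all-gene split moved to 3394 higher and 3421 lower, from 2644 and 4079; the members then gave 27 higher and 4 lower, with all 18 sterol enzymes higher.

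**Figure D1:**
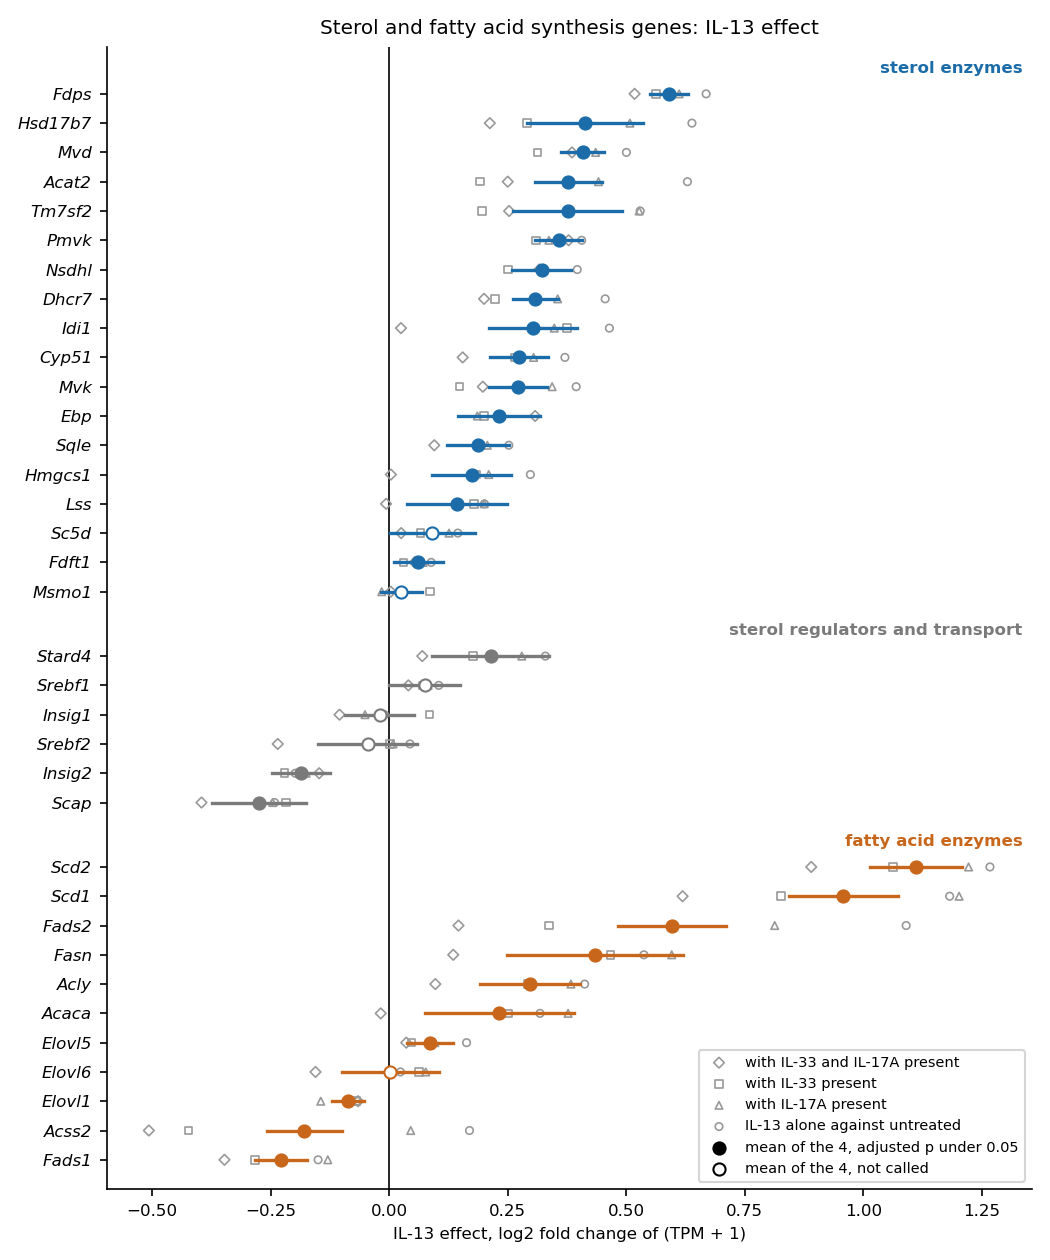
Log2 change of TPM + 1 with IL-13 for each of the 35 genes, ordered within the 3 roles; circles are the change averaged over 4 backgrounds with its 95% interval, filled where called, and grey symbols are the 4 backgrounds. By the averaged change, sterol enzymes lie at or to the right of 0, while Scd2 (1.11) and Scd1 (0.96) lie farthest right and Scap (-0.28) farthest left. Grey symbols of Acss2 in the backgrounds with IL-33 lie farther left than the averaged change of Scap.

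Fdps, the synthase of farnesyl diphosphate at the branch point to sterols, dolichol and prenylated proteins, moved most among the sterol enzymes (chromosome 3, 89093588 to 89101959, minus strand, mm10). Its TPM was 360.1, 334 and 342 in IL-13 libraries, against 216, 219 and 216 in untreated ones. Over all libraries it was 301 to 360.1 TPM with IL-13 (median 327) and 207 to 231 TPM without (median 216), so the 2 sets do not overlap. The averaged log2 change was 0.59 (SE 0.0190, limma adjusted p = 3.27e-15), and the ratio of mean TPM was 1.51.

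Mvd, the decarboxylase that makes isopentenyl diphosphate (chromosome 8, 122433601 to 122443422, minus strand), had 159, 156 and 151 TPM in IL-13 libraries and 105, 115 and 108 TPM in untreated ones. The 2 sets of 12 libraries are again apart, at 130.3 to 159.6 TPM with IL-13 and 104 to 119 TPM without. Its averaged log2 change was 0.41 (SE 0.0217, limma adjusted p = 6.72e-12). Pmvk, the kinase one step before Mvd (chromosome 3, 89454541 to 89469013, plus strand), stood at 27.98 to 32.99 TPM with IL-13 and 22.5 to 25.3 TPM without, a log2 change of 0.36 (SE 0.0236, limma adjusted p = 1.76e-10). These neighbouring steps moved by similar amounts and neither overlaps between the sets.

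Dhcr7 makes the last reduction that yields cholesterol (chromosome 7, 143823145 to 143848410, plus strand). It had 131, 130.4 and 130.4 TPM in IL-13 libraries and 87.6, 98.4 and 99.4 TPM in untreated ones. With IL-13 its 12 values were 109.7 to 131 TPM and without IL-13 they were 87.6 to 102 TPM, with no overlap and an averaged log2 change of 0.31 (SE 0.0222, limma adjusted p = 6.54e-10). Nsdhl, which removes a methyl group from the sterol ring (chromosome X, 72918557 to 72958514, plus strand), had 13.8 to 17.5 TPM with IL-13 and 10.8 to 13.4 TPM without (log2 change 0.32, SE 0.0295, limma adjusted p = 2.23e-08).

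Acat2, a thiolase that joins 2 acetyl-CoA (chromosome 17, 12942890 to 12960747, minus strand), had 29.96, 31.1 and 28.4 TPM in IL-13 libraries and 17.5, 20.4 and 18.97 TPM in untreated ones. Those 2 groups are apart, but over all backgrounds its values with IL-13 (21.5 to 31.1 TPM) overlapped those without (17.5 to 22.3 TPM). The averaged log2 change was 0.38 (SE 0.0338, limma adjusted p = 1.51e-08). Acat2 shares 39.1% of its 50-base windows with Acat3, which stood at 0 to 0.189 TPM with IL-13 and 0 to 0.255 TPM without. Fdps shares 23.4% with Gm43738, an overlapping gene model at no more than 0.282 TPM.

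The other sterol enzymes moved less or with wider error. Hsd17b7 (0.41, SE 0.0583) and Tm7sf2 (0.38, SE 0.0543), a ketone reductase and a sterol reductase of the late pathway, had larger log2 changes than most but wider errors. Idi1 (0.30), Cyp51 (0.27), Mvk (0.27), Ebp (0.23), Sqle (0.19), Hmgcs1 (0.17) and Lss (0.14) were also called. They are the isopentenyl isomerase, the lanosterol demethylase, mevalonate kinase, a sterol isomerase, squalene epoxidase, HMG-CoA synthase and lanosterol synthase. Fdft1, squalene synthase, was called at a log2 change of 0.06 (limma adjusted p = 0.0464), a call that 20 of 31 alternatives lost. Sc5d (0.09) and Msmo1 (0.03), a desaturase and an oxidase of the late pathway, were not called but passed under median-ratio scaling and limma-voom. The limma-voom fit used median-ratio scaling too.

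In the comparison of IL-13 alone with untreated cells, Hsd17b7 averaged 23.4 ± 0.571 and 14.8 ± 2.96 TPM, and Tm7sf2 35.5 ± 4.22 and 24.3 ± 3.02 TPM (SD, n = 3 each). Idi1 averaged 81.5 ± 4.87 TPM with IL-13 and 58.9 ± 5.56 TPM untreated. Cyp51 averaged 93.3 ± 6.45 and 71.9 ± 4.41 TPM, and Mvk 28.2 ± 1.17 and 21.3 ± 1.71 TPM. Of these, Mvk alone kept the 12 libraries with IL-13 (23.8 to 29.3 TPM) above the 12 without (19.6 to 23.2 TPM). Hmgcs1 averaged 109.7 ± 8.65 TPM with IL-13 and 88.98 ± 5.64 TPM untreated, and its 2 sets of 12 overlapped (79.7 to 117 TPM with IL-13 and 80.6 to 95.2 TPM without). Msmo1, at 134 ± 2.78 and 131 ± 3.61 TPM, had the smallest averaged log2 change of the 18 (0.03).

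Some of these values rest on shared sequence. Idi1 has 17.7% of its windows in common with Gm13502 (1.41 to 11.8 TPM with IL-13 and 1.12 to 9.95 TPM without). Gm13502 changed in the same direction as Idi1 with IL-13 (0.47) and with IL-33 added to IL-13 (-0.61), but was not called in either. Tm7sf2 has 9.87% in common with Vps51, which was not called (-0.01). Fdft1 overlaps Ctsb, a far more abundant cathepsin gene that was lower with IL-13 (-0.25). The remaining sterol enzymes had no more than 1.36% of windows in common with other genes.

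**Figure D2:**
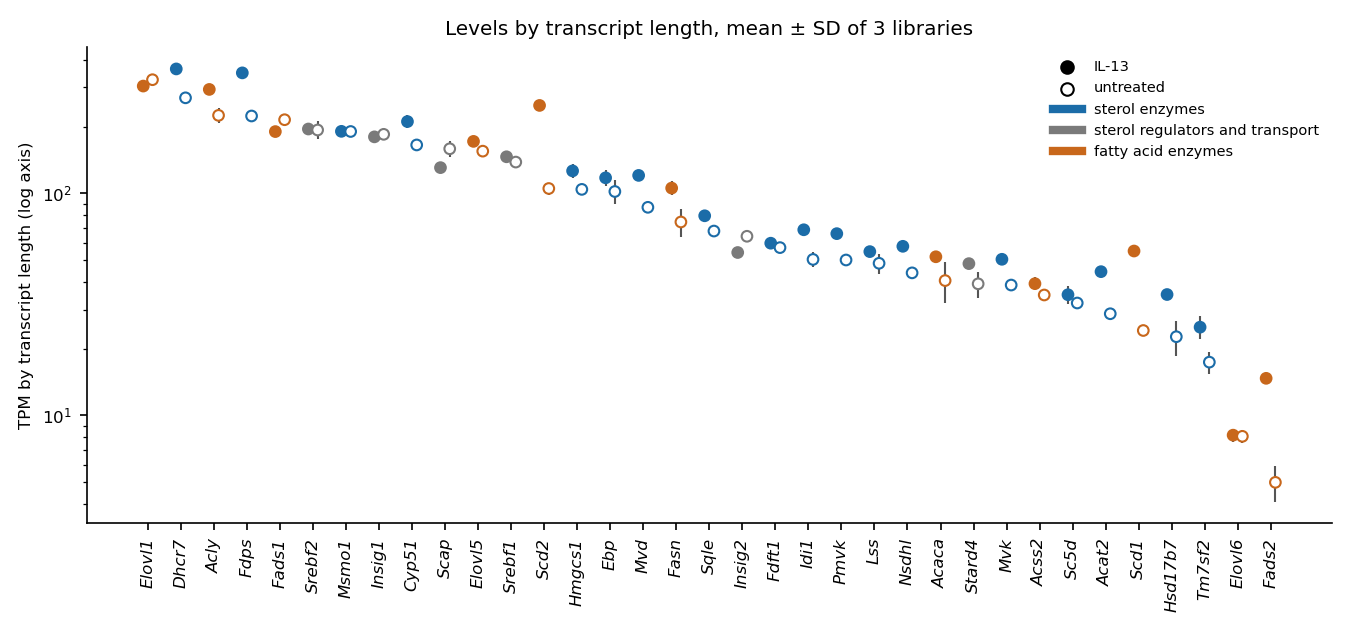
Mean level per gene in transcript-length TPM on a log axis, IL-13 alone as filled and untreated as open symbols with SD over 3 libraries. Elovl1 and Dhcr7 lie at the top of the range and Elovl6 and Fads2 at the bottom.

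Rescaled to transcript length, Dhcr7 averaged 364 TPM in IL-13 cells and 269.5 TPM in untreated cells, while Fdps averaged 349 and 223 TPM. The lowest levels were those of Elovl6 (8.15 TPM with IL-13 alone and 8.05 TPM untreated) and Fads2 (14.7 ± 0.912 and 4.996 ± 0.901 TPM, SD, n = 3). The summed transcript-length level of the 18 sterol enzymes was 2054 ± 31.9 TPM in IL-13 cells and 1598 ± 25.0 TPM in untreated cells (SD, n = 3). That of the 11 fatty acid enzymes was 1484 ± 5.65 and 1212 ± 39.5 TPM. Both sums were apart by more than the spread within either group.

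Of the 6 genes of sensing and transport 1 was higher, 2 were lower and 3 were not called with IL-13. With 20.0% of all genes called higher and 30.9% lower, these counts are near the background. Their median log2 change was -0.03. Stard4, which carries cholesterol between membranes, was higher by a log2 change of 0.21 (SE 0.0589, limma adjusted p = 0.00494), at 29.2 to 45.3 TPM with IL-13 (median 42.7) and 29.8 to 40.4 TPM without (median 35.7). Scap, the SREBP escort, was lower by a log2 change of -0.28 (SE 0.0473, limma adjusted p = 6.56e-05), with a median of 18.2 TPM with IL-13 and 22.8 TPM without. Insig2, a retention protein, was lower by -0.19 (SE 0.0291, limma adjusted p = 2.41e-05), at 9.94 to 11.6 TPM with IL-13 and 11.5 to 13.5 TPM without. The 2 sets overlap in each of these genes. For Stard4 the range with IL-13 encloses the range without, and Scap had 14.5 to 20.9 TPM with IL-13 and 19.3 to 24.1 TPM without. Scap overlaps a gene on the opposite strand over 13.2% of its exon bases.

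Insig1, the other retention protein and itself a known SREBP target, had a log2 change of -0.02 (limma adjusted p = 0.671), with medians of 303 TPM with IL-13 and 310.1 TPM without. Srebf1 had 0.07 (adjusted p = 0.0892; called in 6 of 31 alternatives) and Srebf2 -0.05 (adjusted p = 0.489) in the same limma fit. Srebf1 medians were 63.6 TPM with IL-13 and 59.8 TPM without, and those of Srebf2 were 52.7 and 54.6 TPM. The lowest IL-13 value of Scap (14.5 TPM), Srebf2 (38.0 TPM), Insig1 (249.8 TPM) and Stard4 (29.2 TPM) came from replicate 2 of the triple combination. Without that library 25 members were higher and 5 lower.

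Fatty acid enzymes held the largest increases with IL-13, in Scd2 and Scd1. Of 11, 7 were higher, against 20.0% of all genes, 3 were lower, a share near the 30.9% of all genes, and 1 was not called. The median log2 change was 0.23. Scd2 and Scd1, the desaturases that put the first double bond into stearate and palmitate, are both on chromosome 19 (44293674 to 44306864, plus strand, and 44394455 to 44407879, minus strand). Scd2 had 512, 518 and 491 TPM in IL-13 libraries and 190.1, 219 and 222 TPM in untreated ones. Over all libraries it was 351 to 539.7 TPM with IL-13 and 190.1 to 241 TPM without (log2 change 1.11, SE 0.0464, limma adjusted p = 1.75e-13).

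Scd1 had 58.4, 59.8 and 52.6 TPM in IL-13 libraries and 22.7, 24.8 and 26.1 TPM in untreated ones. It was 31.7 to 60.7 TPM with IL-13 and 20.9 to 27.2 TPM without (log2 change 0.96, SE 0.0548, limma adjusted p = 2.04e-11). Neither gene overlaps between the sets, and the ratios of mean TPM were 2.17 for Scd2 and 2.01 for Scd1. They share little sequence with other genes, 4.56% of windows for Scd1 and 3.97% for Scd2.

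Fads2 and Fads1, the delta-6 and delta-5 desaturases of polyunsaturated fatty acids, are neighbours on chromosome 19 (10062765 to 10101746, minus strand, and 10182888 to 10196877, plus strand). They moved in opposite directions. Fads2 had 4.11, 3.91 and 3.60 TPM in IL-13 libraries and 0.997, 1.45 and 1.45 TPM in untreated ones, from 37 to 180 reads per library over the series. Its averaged log2 change was 0.60 (SE 0.0542, limma adjusted p = 1.89e-08), and the ratio of mean TPM was 1.90.

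Fads1 had 133, 138 and 141 TPM in IL-13 libraries and 142, 159 and 156 TPM in untreated ones. Its averaged log2 change was -0.23 (SE 0.0262, limma adjusted p = 5.16e-07), with 114 to 143 TPM with IL-13 and 142 to 162 TPM without. The opposite shift of the 2 neighbours is a measurement on each gene and was not put to a test of its own.

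Acss2, which makes acetyl-CoA from acetate (chromosome 2, 155517948 to 155585724, plus strand), was lower on average (-0.18, SE 0.0374, limma adjusted p = 0.000497) with IL-13, at 4.07 to 8.37 TPM, against 6.35 to 7.36 TPM without. The range with IL-13 was the wider one. Acly (0.30) makes cytosolic acetyl-CoA from citrate, and Acaca (0.23, adjusted p = 0.0138) turns it to malonyl-CoA. Fasn joins these to palmitate (log2 change 0.43, SE 0.0887, limma adjusted p = 0.000397), with medians of 144 TPM with IL-13 and 106 TPM without. In IL-13 cells and untreated cells, Acly averaged 95.6 ± 0.859 and 71.8 ± 6.81 TPM, Fasn 143 ± 10.7 and 98.7 ± 16.4 TPM, and Acaca 4.58 ± 0.161 and 3.52 ± 0.7997 TPM (SD, n = 3 each). Acaca shares 30.4% of its windows with other genes. Replicate 2 of the triple combination gave the lowest IL-13 value of all 3. Of the elongases, Elovl5 was higher (0.09, limma adjusted p = 0.00395), Elovl6 was not called (0.00, adjusted p = 0.976), and Elovl1 was lower (-0.09, adjusted p = 0.000184). The Elovl1 call was lost under median-ratio scaling (adjusted p = 0.402) and limma-voom (0.372).

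**Figure D3:**
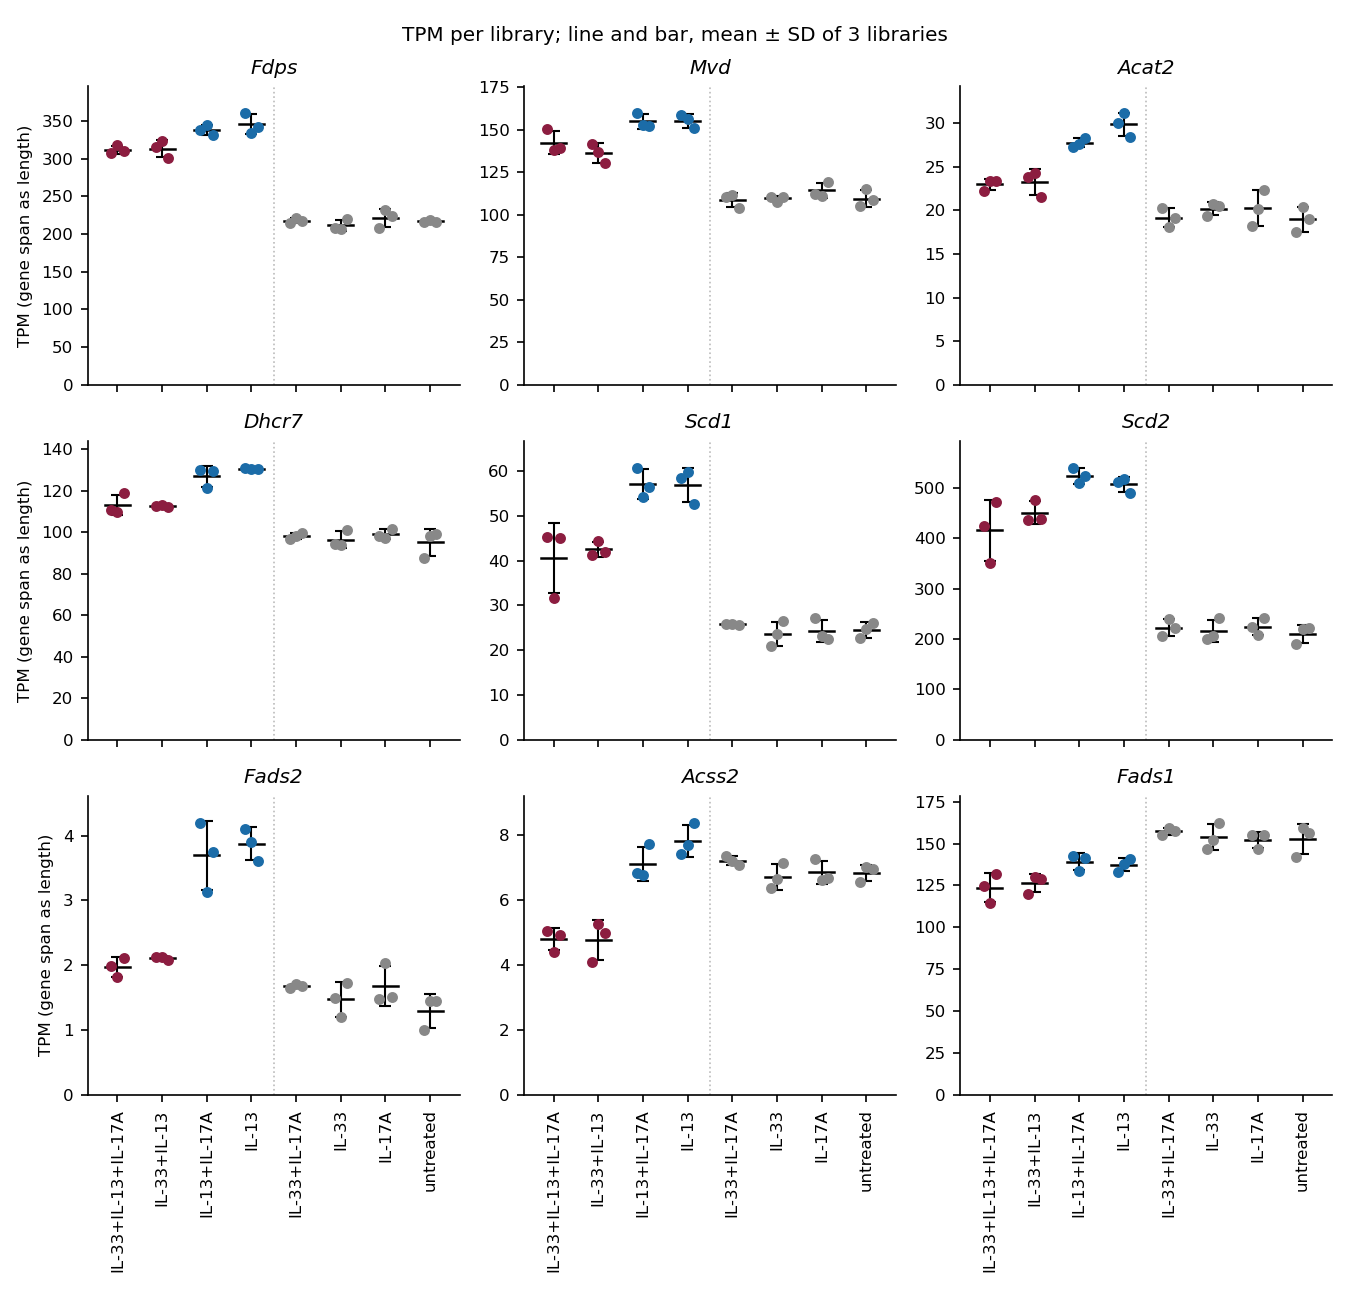
TPM in every library for Fdps, Mvd, Acat2, Dhcr7, Scd1, Scd2, Fads2, Acss2 and Fads1, one panel a gene with the 8 groups along the axis; points are libraries and bars mean ± SD (n = 3). The 4 groups with IL-13 stand above the 4 without in Fdps and Scd2, and Acss2 is lowest in the 2 groups with both IL-33 and IL-13.

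The direction of the IL-13 change was compared in each of its 4 backgrounds, each with its own 3 control libraries. For the triple combination against IL-33 with IL-17A, 11 members were higher and 3 lower, with 11% of all genes called higher and 21.7% lower. For IL-33 with IL-13 against IL-33, 13 were higher and 3 lower (all genes 11.2% and 12.8%). For IL-13 with IL-17A against IL-17A, 17 were higher and 2 lower (12.2% and 17.6%). For IL-13 against untreated, 21 were higher and 2 lower (14.1% and 15.7%). Sterol enzymes called higher were 9, 9, 12 and 14 in that order.

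Scaling and single libraries bear on these counts. The triple comparison gave 18 higher members under median-ratio scaling and 8 when its 2 groups were fitted alone. With the scaling the share of its all-gene calls that were higher moved to 50.8% from 33.6%. Without the 3 libraries set apart it gave 16 higher and 4 lower, and IL-33 with IL-13 against IL-33 gave 19 and 4. None of those 3 libraries is in the latter comparison. Its log2 changes stayed the same, and only the error estimate shared by all groups moved. The count of lower members is small and moved most: 0 to 3 for IL-13 against untreated, 0 without untreated replicate 2 or without IL-13 replicate 1 and 1 without untreated replicate 3 or IL-13 replicate 2. For IL-13 with IL-17A against IL-17A it was 4 without the triple combination's replicate 2 and 1 without replicate 1 or 3 of IL-17A or replicate 1 or 2 of IL-13 with IL-17A. The triple combination is not in that comparison, so leaving out its replicate 2 changed the shared error estimate and not the log2 changes.

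Fdps was called in every background, with log2 changes of 0.52 (triple combination), 0.56 (IL-33 with IL-13), 0.61 (IL-13 with IL-17A) and 0.67 (IL-13 alone). Scd2 had 0.89, 1.06, 1.22 and 1.27 in the same order, and Scd1 had 0.62, 0.83, 1.2 and 1.18. Fads2 ran from 0.15, not called, in the triple combination to 0.34, 0.81 and 1.09, all called. Acss2 differed in sign: -0.51 and -0.42 in the 2 backgrounds with IL-33, both called lower, and 0.05 and 0.17 in the 2 without it, neither called.

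The effect of IL-33 on top of IL-13 was taken from the 6 libraries with both against the 6 with IL-13 and no IL-33, averaged over IL-17A. Of the 35 members 12 were lower and none higher, at an all-gene background of 4.48% lower and 2.53% higher. No member was higher under limma-voom either, and none of the higher log2 changes reached an unadjusted p under 0.05. The 12 were 7 of the 18 sterol enzymes and 5 of the 11 fatty acid enzymes, and no gene of sensing and transport. The median log2 change was -0.13 over the members and -0.03 over all tested genes. Without replicate 1 of IL-13 with IL-17A the 12 became 7, with 4 sterol and 3 fatty acid enzymes; without replicate 1 of IL-33 with IL-13 the fatty acid enzymes were 3.

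Fads2 had the largest change, with 1.98, 1.81 and 2.12 TPM in the triple combination and 2.13, 2.13 and 2.08 TPM in IL-33 with IL-13, against 3.14 to 4.198 TPM in the 6 libraries with IL-13 and no IL-33. The sets are apart, and the log2 change was -0.65 (SE 0.0766, limma adjusted p = 1.33e-05; ratio of mean TPM 0.539). Acss2 had 5.03, 4.39 and 4.92 TPM in the triple combination and 4.07, 5.27 and 4.98 TPM in IL-33 with IL-13, against 6.78 to 8.37 TPM without IL-33. Its log2 change was -0.55 (SE 0.0529, limma adjusted p = 1.02e-06; ratio of mean TPM 0.640). Acss2 overlaps Gss, a glutathione synthesis gene, on the opposite strand over 9.12% of its exon bases. Gss changed by -0.36 in the same comparison (adjusted p = 0.000117), and as strand handling is not given, reads in the overlap cannot be told apart.

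Scd1 stood at 31.7 to 45.2 TPM with IL-33 and IL-13 and at 52.6 to 60.7 TPM with IL-13 without IL-33, a log2 change of -0.45 (SE 0.0775, limma adjusted p = 0.000753). Scd2 stood at 351 to 477 and at 491 to 539.7 TPM (log2 change -0.26, limma adjusted p = 0.0209). Both still lay above the 20.9 to 27.2 TPM (Scd1) and 190.1 to 241 TPM (Scd2) of libraries without IL-13. Acat2 had 21.5 to 24.3 TPM with IL-33 and IL-13 and 27.3 to 31.1 TPM with IL-13 without IL-33 (log2 change -0.30, SE 0.0478, limma adjusted p = 0.000301). Dhcr7 had 109.7 to 119 and 121 to 131 TPM (log2 change -0.19, SE 0.0314, limma adjusted p = 0.000593).

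Mvd (-0.15), Fdps (-0.13), Fads1 (-0.15), Nsdhl (-0.15), Idi1 (-0.25) and Tm7sf2 (-0.28) completed the 12. The Fdps call was lost under median-ratio scaling (adjusted p = 0.204) and limma-voom (0.163), and the Nsdhl call in 12 of 32 alternatives. Of the same 32, the Tm7sf2 call was lost in 6, those of Scd2 and Fads1 in 4 each and that of Idi1 in 3, the highest adjusted p of the last 4 being 0.0951. In 10 members, Acat2, Mvd, Fdps, Fdft1, Dhcr7, Acss2, Scd1, Scd2, Fads1 and Fads2, all 6 libraries with IL-33 and IL-13 were below all 6 with IL-13 alone or with IL-17A, against 3.68% of all tested genes. In no member were they all above, against 1.64%. The summed transcript-length level of the sterol enzymes was 1902 ± 27.9 TPM in the triple combination and 1904 ± 24.1 TPM in IL-33 with IL-13, against 2028 ± 24.01 TPM in IL-13 with IL-17A and 2054 ± 31.9 TPM in IL-13 alone (SD, n = 3).

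**Figure D4:**
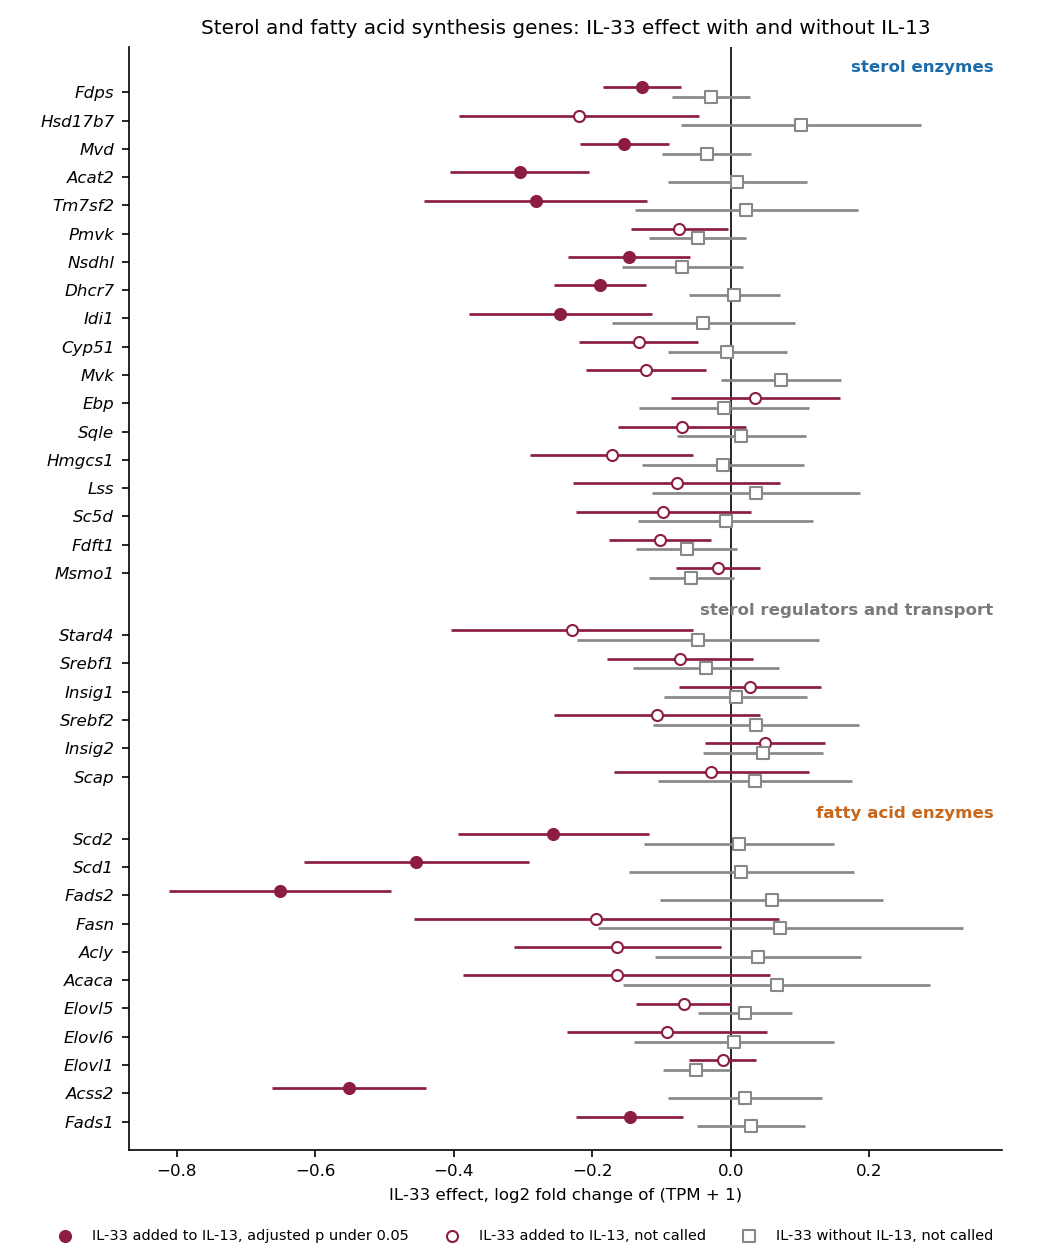
Log2 change of TPM + 1 with IL-33 for each of the 35 genes, with 95% intervals; circles are IL-33 added to IL-13, filled where called, and squares IL-33 without IL-13. Fads2 (-0.65) and Acss2 (-0.55) lie farthest left among the circles, while the squares lie between -0.07 and 0.10.

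Without IL-13, IL-33 changed no member beyond the threshold. In limma 0% of all genes were called higher and 0% lower, with 656 genes at an unadjusted p under 0.05 and 0 calls by limma-voom. Member log2 changes were -0.07 to 0.10, and their 95% intervals lay within -0.222 to 0.335. Elovl1 was the 1 member under an unadjusted p of 0.05. The difference between IL-33 with IL-13 and IL-33 without it was tested as an interaction term, which was called lower in 2.11% and higher in 1.46% of all genes. Among the members 5 were lower and none higher: Fads2, Acss2, Scd1, Acat2 and Dhcr7.

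IL-17A moved the members little. Added to IL-13 it gave 0% of genes higher and 0% lower in limma, with 608 genes at an unadjusted p under 0.05, 0 calls by limma-voom and 1 member, Idi1 (-0.15), under the unadjusted threshold. Without IL-13 the shares were also 0% and 0%, with 473 genes, 0 limma-voom calls and 1 member, Fads2 (0.17). The interaction of IL-17A and IL-13 was called in 0% of genes in either direction by limma and in 1 gene by limma-voom. At an unadjusted p under 0.05 it held 665 genes, of which 2 were members, Idi1 and Fads2.

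Related genes outside the 35 were counted from lists chosen by role, to be read against the 20.0% of all genes called higher with IL-13 and the 30.9% called lower. Of 15 tested genes in 17 other sterol pathway genes, 7 were higher with IL-13 and 4 lower. The sterol-binding protein Tmem97 (log2 change 0.34), Nus1 of dolichol synthesis (0.23) and the mitochondrial thiolase Acat1 (0.21) were higher, and Cyb5r3 (-0.16), a reductase that passes electrons to cytochrome b5, was lower.

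Of 9 other sterol sensing genes none was higher and 3 were lower in limma, a share of lower calls near that of all genes: Rnf145 (-0.45), Erlin1 (-0.38) and Rnf139 (-0.09), which encode proteins of the endoplasmic reticulum membrane. Of 22 tested genes in 34 other fatty acid and glycerolipid genes, 6 were higher and 10 lower. Agpat1 (0.52) and Agpat5 (0.41), acyltransferases of phospholipid synthesis, and the mitochondrial citrate carrier Slc25a1 (0.34) were higher, and Mid1ip1 (-0.55), an activator of acetyl-CoA carboxylase, was lower. Of 11 liver X receptor and cholesterol export genes, 3 were higher and 7 lower. Ch25h (4.10), which makes 25-hydroxycholesterol, and Nr1h3 (0.37), which encodes the receptor LXR alpha, were higher, and Apoe (-1.06) and Mylip (-0.52) were lower.

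When IL-33 was added to IL-13, 2 of the other sterol pathway genes were lower and none was higher in limma, with 4.48% of all genes called lower and 2.53% higher. None of the 9 sensing genes was called, 2 fatty acid and glycerolipid genes were higher and 4 lower, and 1 export gene, Apoe (0.48), was higher and 2 were lower, with Ch25h at -0.46. Cell cycle genes moved beside the members in both comparisons. Of 10, 9 were higher with IL-13 and 7 were lower when IL-33 was added to it; Rrm2 had 1.26 and -1.17, and Mcm5 1.03 and -0.71. The 10 summed to 524 to 568 TPM with IL-33 and IL-13, 581 to 622 TPM with IL-13 without IL-33, and 518.5 to 561 TPM without IL-13. The alveolar macrophage list summed to 21743 to 22759 TPM with IL-33 and IL-13 and to 23413 to 24505 TPM with IL-13 without IL-33. Their part in the members' changes was not tested.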

How the data were processed

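The deposited values are TPM for 17017 genes in 24 libraries, 3 in each of 8 groups taken from the treatment labels. Per the submitters' processing notes, STAR was the aligner and mm10 the build. No version, read counter or strand setting is named in the sources used here. The values were found to use each gene's whole span as its length. Multiplying by span recovered read numbers that were whole within 0.05 for 90.2% to 91.6% of values up to 20 reads. Why the other values were not whole was not tested. The median span was 9.75 times the mean length of a gene's annotated transcripts in GENCODE M21.

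One limma fit (3.58.1, R 4.3.3) of 8 group means on log2(TPM + 1), with 16 residual degrees of freedom and an intensity trend, gave all contrasts. Genes needed 1 TPM in 3 libraries. p-values were adjusted by Benjamini-Hochberg over 13215 genes, and the fit was tested on simulated data for IL-13 against untreated alone. The simulation gave every gene the same dispersion, raised as many genes as it lowered and held no outlying library. It did not cover the averaged or interaction contrasts. Comparisons that use the same control libraries are not independent. Alternatives changed the scaling, filter, pseudocount, model (limma-voom on recovered reads among them) and libraries. The limma-voom fit also scaled libraries by median ratios, so it and median-ratio scaling are not separate checks. The members and lists were chosen with earlier results of these data known. The text describes in full the 6 sterol and 4 fatty acid enzymes with the smallest p, all regulators, and members called with IL-33 or IL-17A, and names at most 4 called genes of each other list.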

Additional observations from a re-analysis of the deposited data

Results flagged for a closer look

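The IL-33 effect differed between cells with and without IL-13 in 5 members, by a test of the difference itself, the interaction term of the limma fit over all 24 libraries. The interaction was -0.71 for Fads2 (log2, limma adjusted p = 0.000484), -0.572 for Acss2 (9.2e-05), -0.469 for Scd1 (0.0186), -0.314 for Acat2 (0.0101) and -0.194 for Dhcr7 (0.0163). The IL-33 change in these genes was -0.65, -0.55, -0.45, -0.30 and -0.19 with IL-13 and 0.06, 0.02, 0.02, 0.01 and 0.01 without it, in the same order. The other 30 members were not called for the interaction.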

How the results depend on the processing

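Sign was checked gene by gene for the averaged IL-13 effect, IL-33 added to IL-13 and the interaction of IL-33 and IL-13. No called change of a member took the opposite sign in an alternative. IL-13 averaged over backgrounds gave 22 to 27 higher and 4 or 5 lower members over the alternatives, and 23 to 26 and 5 when 1 library was left out. The lower members for IL-13 against untreated (2) were 0 with those groups fitted alone and 0 to 3 with 1 library left out. For IL-13 with IL-17A against IL-17A they (2) were 1 under limma-voom, 4 with a covariate for libraries numbered 30 or higher, 4 without the 3 libraries set apart, and 1 to 4 with 1 library left out. No library of either group has such a number, so the covariate left the log2 changes of that comparison the same. All 4 libraries with such numbers received IL-33, so the numbering is partly confounded with IL-33. They are IL-33 replicate 3, IL-33 with IL-17A replicates 2 and 3, and triple combination replicate 3. With the covariate, Hmgcs1, Cyp51, Hsd17b7 and Stard4 were also called lower when IL-33 was added to IL-13. Higher members of the triple comparison (11) were 18 under median-ratio scaling and 18 under limma-voom, and 8 with those groups fitted alone. With IL-33 added to IL-13, higher members (0) were 1, Insig1, without the 3 libraries set apart (adjusted p = 0.0494). Lower members (12) were 7 to 15 with 1 library left out, sterol enzymes (7) 4 to 9 and fatty acid enzymes (5) 3 to 5. Without the triple combination's replicate 2 they were 10 (5 sterol, 5 fatty acid), and without the 3 libraries set apart 11. The IL-33 and IL-13 interaction (5) was 8 under limma-voom. Where an alternative left the log2 changes of a comparison the same, its counts moved through the error estimate shared by all groups. The cause of the other changes was not tested. No paired analysis was possible because the labels give no replicate number that ties libraries of different groups together. Low read numbers limit Fads2 (37 to 180 reads).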
